A study of Mus musculus with 3 samples.

Results

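The 10 genes described here encode the 5 subunits of the transcription factor NF-kappaB (Nfkb1, Nfkb2, Rel, Rela and Relb) and 5 of its inhibitors (Nfkbia, Nfkbib, Nfkbie, Nfkbid and Nfkbiz). They were taken by symbol, without regard to their values, from 55536 gene entries, and all 10 were found. Total RNA was sequenced from splenic T cells of female B6CASTF1/J mice, F1 hybrids with C57BL/6 as the maternal and CAST/EiJ as the paternal strain, aged 66 days, with CD3 named in the labels as the marker of the cells. The 3 libraries, each made from 300 ng of RNA with spike-in RNA added and with strand kept, form 1 group with no treatment and no control. They come from 3 biosamples under 1 donor record, and nothing in the labels says that these were separate animals, so the spread between libraries may be technical. Levels are in TPM, the deposited abundance unit that corrects counts for transcript length and library size, and values are given for replicates 1, 2 and 3 in that order. The authors deposited estimates from 2 procedures run on the same reads and annotation; values come from the first unless the second quantification is named, and transcripts are called entries of the GENCODE annotation on mm10 (GRCm38).

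NF-kappaB is a dimer of subunits that share the Rel homology domain. Nfkb1 and Nfkb2 encode the long precursors p105 and p100, which are cut to the DNA-binding subunits p50 and p52, while RelA, RelB and c-Rel carry their own transactivation domains. In resting cells the classical inhibitors IkappaB-alpha (Nfkbia), IkappaB-beta (Nfkbib) and IkappaB-epsilon (Nfkbie) hold dimers in the cytoplasm through their ankyrin repeats, until the IKK kinases mark them for destruction by the proteasome. IkappaB-NS (Nfkbid) and IkappaB-zeta (Nfkbiz) are atypical, nuclear members that bind p50 or p52 dimers on DNA and can repress or activate. In T cells the pathway is switched on by the antigen receptor and by costimulatory receptors. Several of the genes, Nfkbia foremost, are themselves known NF-kappaB targets, which forms a feedback loop.

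Because of that loop, the DNA just before annotated RefSeq starts is shown where it holds a letter match to the kappaB consensus. RefSeq windows (GRCm38.p6) of 250 bases before an annotated start were found for 7 of the 10 genes, namely Nfkb2, Rel, Rela, Nfkbia, Nfkbib, Nfkbie and Nfkbid. Both strands were searched, and overlapping matches were merged. Of those 7 genes, 5 held a match, against 8.23% of the 27025 genes with a window. Genes differ in their number of windows, with 3 each for Nfkb2 and Nfkbid. By window, 7 of 11 held a match, against 7.25% of all 32851 windows. The stretches below run 5′ to 3′ along the gene's strand, with the bases covered by a match in capitals.
Nfkb2, first window, chr19:46304678-46304736, plus strand: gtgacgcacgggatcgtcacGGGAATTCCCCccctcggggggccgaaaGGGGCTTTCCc
Nfkb2, the second window, chr19:46305445-46305488, plus strand: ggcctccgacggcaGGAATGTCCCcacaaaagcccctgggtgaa
Nfkb2, the third window, chr19:46305685-46305734, plus strand: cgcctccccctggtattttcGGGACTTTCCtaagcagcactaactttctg
Rel, chr11:23771031-23771081, minus strand: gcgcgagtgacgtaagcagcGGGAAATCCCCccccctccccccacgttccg
Nfkbia, chr12:55492648-55492696, minus strand: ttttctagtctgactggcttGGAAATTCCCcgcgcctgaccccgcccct
Nfkbie, chr17:45555574-45555623, plus strand: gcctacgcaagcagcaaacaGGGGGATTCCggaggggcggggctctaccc
Nfkbid, chr7:30422160-30422209, plus strand: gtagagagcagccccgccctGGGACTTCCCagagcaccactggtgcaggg
Nfkbid, the same window, chr7:30422205-30422254, plus strand: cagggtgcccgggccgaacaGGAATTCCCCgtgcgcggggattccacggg

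Nfkb2 had a match in each of its 3 windows, and Nfkbid in 1 of 3. All 3 windows of Nfkb2 and the matching window of Nfkbid lie within the annotated span of their gene. The first Nfkb2 stretch falls in the first exon of the entry Nfkb2-206, and the third overlaps that of Nfkb2-202. That window of Nfkbid precedes the entry Nfkbid-202, listed at 0 TPM in all 3 libraries of the first quantification. In the second it had 0, 0.80 and 0.15 TPM. The windows before Nfkbid-203 and Nfkbid-201 held no match. The match in Nfkbia lay on the minus strand of its window, 29 bases before the start at its far end, and it was also a match to the narrower motif GGGANNTTCC. That motif was found in 1.36% of genes with a window, and among the genes described here in Nfkbia and in 2 windows of Nfkb2. Rela and Nfkbib had no match in these letters. A match is a string of letters, and binding was not measured.

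All 10 genes were detected in all 3 libraries, and 9 were at 10 TPM or more throughout, where the median of the 9851 protein-coding genes with at least 1 TPM in all libraries was 13.6 TPM. Their estimated counts ran from 354 (Nfkbib, replicate 2) to 3607 (Nfkb1, replicate 1). For each gene the deposited posterior SD of the count was 0, so no reads were recorded as shared with another gene. In bulk RNA, fewer cells with a transcript and less transcript per cell cannot be told apart.

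Among the subunits, Nfkb1 (ENSMUSG00000028163.17, chr3:135584655-135691547) was highest, at 66.60, 64.35 and 61.54 TPM, a mean of 64.2 ± 2.54 TPM (SD, n = 3). Rela (ENSMUSG00000024927.8, chr19:5637483-5648130), which encodes the p65 subunit of the classical dimer, followed with 44.40, 41.35 and 46.41 TPM. The lowest Nfkb1 library lay above the highest Rela library, and Nfkb1 was 1.46-fold higher than Rela over all transcripts. Nfkb2 (ENSMUSG00000025225.15, chr19:46304320-46312385) had 23.59, 20.67 and 20.35 TPM, below every Rela value. Relb (ENSMUSG00000002983.17, chr7:19606217-19629438), the partner of p52 in the non-canonical pathway, had 17.28, 16.51 and 14.73 TPM. Rel (ENSMUSG00000020275.9, chr11:23736847-23770970), the lymphocyte subunit c-Rel, was the lowest of the 5 with 13.48, 12.84 and 10.88 TPM, all below the Relb values. Its single transcript is 7466 nt long, and its counts of 1691, 1458 and 1365 exceeded those of Relb in every library (604, 434 and 463), so the order of these genes by count differs from that by TPM.

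The non-canonical pair, Nfkb2 with Relb, summed to 40.87, 37.18 and 35.08 TPM, against 124.48, 118.54 and 118.83 TPM for Nfkb1, Rel and Rela together. The ratio of these sums was 0.312, a log2 value of -1.68 ± 0.08 (SD, n = 3). It stayed between 0.300 and 0.367 in the second quantification, among protein-coding transcripts and in both combined. Nfkb1 made up 40.5 ± 0.704% of summed subunit TPM, Rela 27.9 ± 2.00%, Nfkb2 13.6 ± 0.589%, Relb 10.2 ± 0.557% and Rel 7.82 ± 0.654% (SD, n = 3 each).

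Nfkbia (ENSMUSG00000021025.8, chr12:55489410-55492647), the fast feedback inhibitor, was the highest of the 10 genes at 79.99, 79.50 and 69.55 TPM, a mean of 76.3 ± 5.89 TPM (SD, n = 3). Its lowest library lay above the highest Nfkb1 library, and it ranked 687th among the 9851 protein-coding genes, with Nfkb1 ranked 872nd. Nfkbib (ENSMUSG00000030595.15, chr7:28758251-28767512) was well below it with 22.16, 17.75 and 17.25 TPM. Nfkbie (ENSMUSG00000023947.8, chr17:45555703-45563169) was the lowest of the 10 with 12.60, 12.03 and 9.98 TPM, a range that overlapped that of Rel. Nfkbia thus held 46.0 ± 0.914% of summed inhibitor TPM, against 6.94 ± 0.375% for Nfkbie (SD, n = 3 each).

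Of the nuclear inhibitors, Nfkbiz (ENSMUSG00000035356.17, chr16:55811375-55838899) had 44.72, 44.39 and 40.77 TPM, a range that overlapped that of Rela. Nfkbid (ENSMUSG00000036931.15, chr7:30421732-30428746) had 15.69, 15.16 and 15.70 TPM, within the range of Relb and above every Rel value. Summed, the nuclear pair had 60.41, 59.55 and 56.47 TPM, against 114.75, 109.28 and 96.78 TPM for the 3 classical inhibitors, a ratio of 0.551 that was below 1 in all 3 libraries.

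In descending order of mean TPM the genes were Nfkbia, Nfkb1, Rela, Nfkbiz, Nfkb2, Nfkbib, Relb, Nfkbid, Rel and Nfkbie. Neighbours in this order did not overlap in range between Nfkbia and Nfkb1, Nfkb1 and Rela, Nfkbiz and Nfkb2, and Nfkbid and Rel. The other 5 neighbouring pairs overlapped in range and are not called ordered by that rule. Compared within each library, Nfkb2 was above Nfkbib, Nfkbib above Relb, and Rel above Nfkbie in every library. Rela against Nfkbiz and Relb against Nfkbid changed direction between libraries. In the second quantification, Nfkbia, Nfkb1 and Rela again led and Nfkbie was again last. Its means were 1.01 (Relb) to 1.72 (Nfkbib) times those of the first, with a median of 1.30 over the 10 genes. Higher means in it were not particular to the 10. Cd3e, for example, had 384 against 319 TPM, while some genes such as Trac were lower (473 against 492 TPM).

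**Figure D1:**
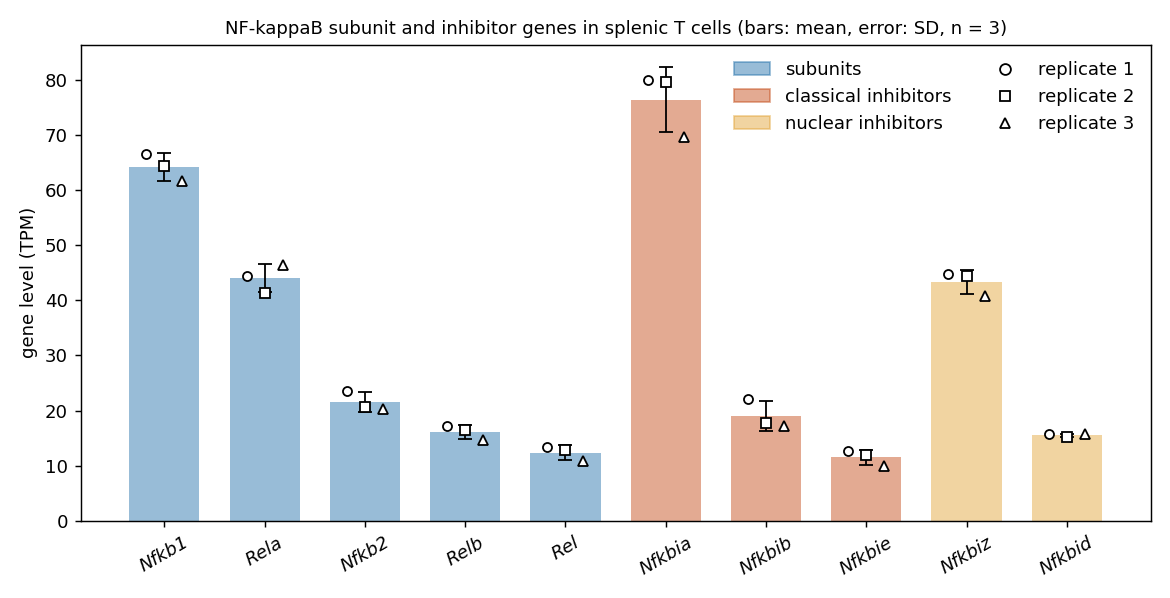
Gene level in TPM (vertical axis) of the 5 subunits, the 3 classical inhibitors and the 2 nuclear inhibitors. Bars are means, error bars the SD of 3 libraries and symbols the libraries; Nfkb1 and Rela lead the subunits, Nfkbia and Nfkbiz the inhibitors, and replicate 3 is the lowest for 8 of the 10 genes.

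The 5 subunits summed to 165.35, 155.72 and 153.91 TPM, and the 5 inhibitors to 175.16, 168.83 and 153.25 TPM. The ratio was 0.944, 0.922 and 1.00 in the 3 libraries, a mean log2 ratio of -0.06 ± 0.06 (SD, n = 3), below 0 in 2 of 3. Subunit and inhibitor transcripts were therefore not separated by more than the spread between libraries when all annotated transcripts were counted. A sign-flip test over 3 libraries cannot give a p below 0.25, so none is reported. Against the 3 classical inhibitors alone the subunits were 1.48-fold higher, in 3 of 3 libraries. That ratio was 1.21 over protein-coding entries and 1.31 in the second quantification, with 3 of 3 libraries above 1 both times, and 1.07 with 2 of 3 above 1 over protein-coding entries of the second quantification.

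The comparison moved when only entries annotated as protein-coding were summed. The subunits then had 107.79, 103.09 and 95.54 TPM, and the inhibitors 150.21, 149.67 and 128.06 TPM. The inhibitor sum was 1.39-fold higher, with a log2 ratio of subunits to inhibitors of -0.48 ± 0.06 (SD, n = 3), below 0 in 3 of 3 libraries. In the second quantification the log2 ratio was -0.20 ± 0.07 over all entries and -0.64 ± 0.06 over protein-coding entries, below 0 in 3 of 3 libraries both times.

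**Figure D2:**
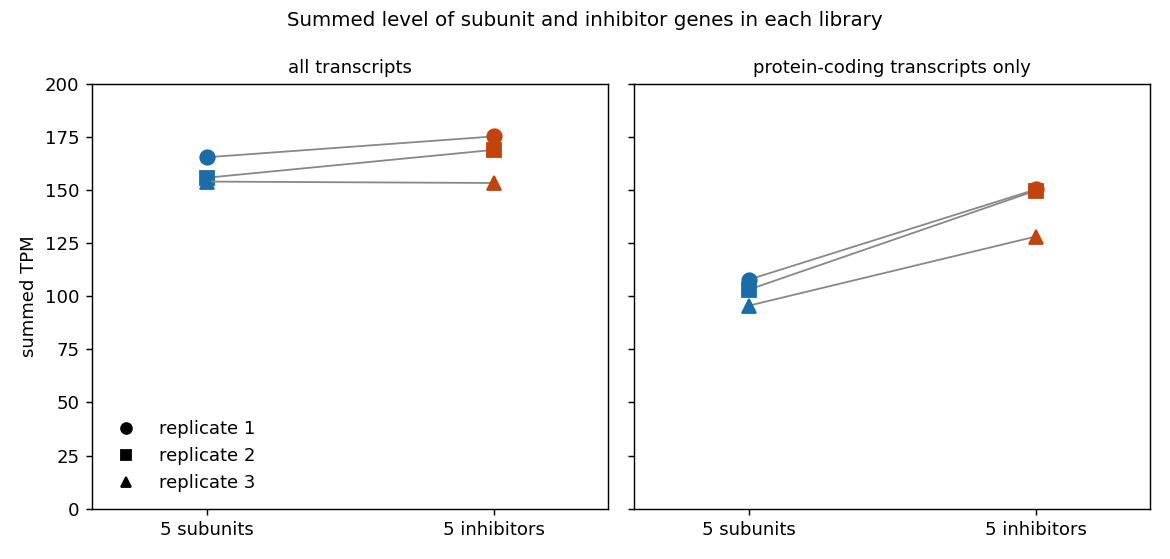
Summed TPM (vertical axis, from 0) of the 5 subunits and the 5 inhibitors, with each library as 1 line, over all transcripts (left) and over protein-coding transcripts only (right). The lines are nearly flat on the left, where the ratio ran from 0.922 to 1.00, and climb towards the inhibitors on the right, where it ran from 0.689 to 0.746.

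Within the subunits, the precursor genes Nfkb1 and Nfkb2 summed to 90.19, 85.02 and 81.89 TPM, against 75.16, 70.70 and 72.02 TPM for Rel, Rela and Relb, a 1.18-fold difference above 1 in 3 of 3 libraries. Over protein-coding entries the direction turned, with 48.92, 45.24 and 42.35 TPM against 58.87, 57.85 and 53.19 TPM, a ratio of 0.803 below 1 in 3 of 3. In the second quantification it did not turn, at 1.15 over all entries and 1.12 over protein-coding entries. The order of the 2 classes thus depended on how reads were divided among the transcripts of each gene. The same held for Nfkb1 against Rela, at 1.46 over all entries, 0.895 over protein-coding entries, and 1.24 over protein-coding entries of the second quantification.

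By construction, these shifts come from the types of transcript to which reads of the 10 genes were assigned. Protein-coding entries held 46.3 ± 0.932% of Nfkb1 TPM, 73.1 ± 4.49% of Nfkb2, 75.5 ± 3.40% of Rela and 67.8 ± 8.74% of Relb (SD, n = 3 each). Among the inhibitors they held 79.5 ± 6.50% of Nfkbia, 43.4 ± 2.80% of Nfkbie, 95.8 ± 3.66% of Nfkbid and 98.8 ± 0.427% of Nfkbiz (SD, n = 3 each). Rel has 1 annotated transcript, and all 3 Nfkbib entries are protein-coding, so both stood at 100%. Nfkb1 and Nfkbie were under 50%. Of the 5326 protein-coding genes with several entries and at least 10 TPM in all libraries, 26.1% were under 50% and the median was 67.5%. Nfkbie and Rel fall outside that set, and of the 8 genes within it 1, Nfkb1, was under 50%.

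**Figure D3:**
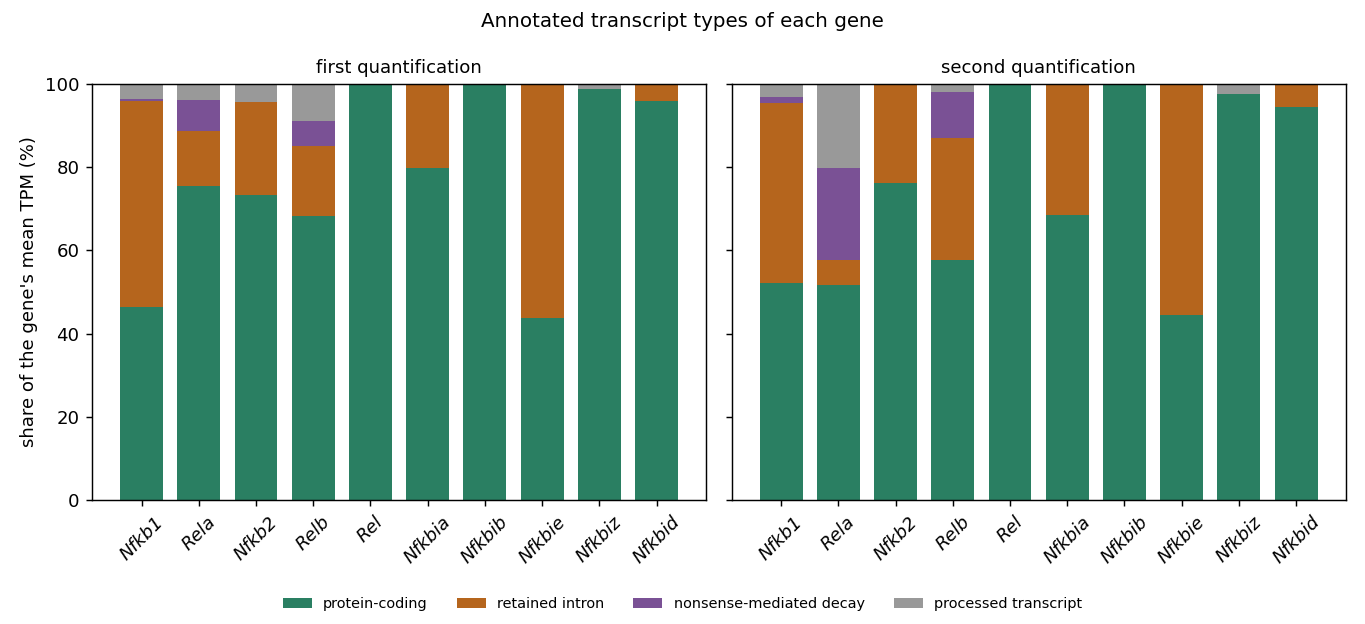
Share of each gene's mean TPM (vertical axis, percent) by annotated transcript type in the first (left) and the second (right) quantification. Retained-intron entries take 49.4% of Nfkb1 and 56.6% of Nfkbie on the left, and 43.3% and 55.6% on the right, while the protein-coding share of Rela is 75.5% on the left and 52.2% on the right.

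Nfkb1-201, the entry for the precursor p105 of 971 residues, held 39.5 ± 3.49% of Nfkb1 TPM (SD, n = 3). The retained-intron entries Nfkb1-202, Nfkb1-204 and Nfkb1-210 held 18.2 ± 1.01%, 17.1 ± 0.245% and 10.6 ± 0.743% (SD, n = 3 each). None of the 3 keeps a whole intron of Nfkb1-201. Nfkb1-204 runs from the first exon into intron 12 and ends there, with 1825 of its bases outside the exons of Nfkb1-201. Nfkb1-202 starts inside the same intron and runs to the last exon with only 188 such bases, so nearly all of its sequence is shared with Nfkb1-201. Nfkb1-210 is a single exon of 2001 nt that enters intron 16, with 1859 bases outside. In the second quantification Nfkb1-206, which encodes the same 971 residues, had 11.7, 13.0 and 13.4 TPM, whereas in the first it was listed at 0, 1.91 and 0.

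Nfkbie gave the clearest case of a whole kept intron. Nfkbie-202 had 7.0, 6.54 and 5.96 TPM, and the protein-coding Nfkbie-201, for 364 residues, had 5.59, 4.32 and 4.02 TPM. The retained-intron entry was the higher of the pair in 3 of 3 libraries of the first quantification, with 56.6 ± 2.80% of the gene's TPM (SD, n = 3). In the second its values were 9.50, 6.67 and 7.26 TPM, against 6.66, 7.10 and 4.58 TPM for Nfkbie-201, higher in 2 of 3 libraries. Nfkbie-202 keeps intron 2, at chr17:45558598-45559207, whose 610 bases are its only bases outside the exons of Nfkbie-201. The junctions, with 20 bases on each side from the annotation's transcript sequence on the plus strand of GRCm38 and the intron's first and last pair of bases in capitals, are these.
Exon 2 into the intron, chr17:45558578-45558617: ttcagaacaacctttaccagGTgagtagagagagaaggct
Intron into exon 3, chr17:45559188-45559227: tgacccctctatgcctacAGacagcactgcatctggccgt
Read in the frame of Nfkbie-201, the kept intron meets a stop codon at its bases 175 to 177, after 217 residues. Whether any protein is made from it was not measured.

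**Figure D4:**
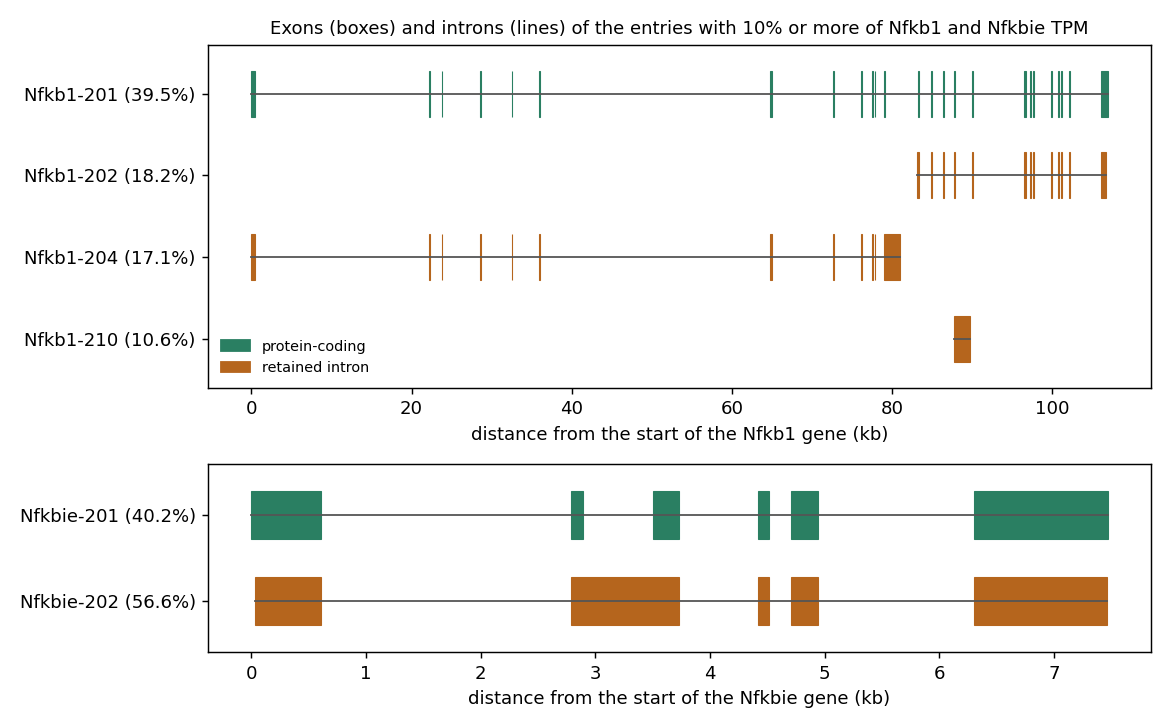
Exons (boxes) and introns (lines) of the entries with 10% or more of the TPM of Nfkb1 (top) and Nfkbie (bottom), along the distance from the gene's start in kb, with the entry's mean share beside its name. Nfkb1-204 ends and Nfkb1-202 begins within intron 12, and Nfkbie-202 holds the 610 bases between exons 2 and 3 of Nfkbie-201.

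In the first quantification Nfkb2 had 3 entries with 10% or more of its TPM. Nfkb2-206, for a p100 form of 878 residues, held 32.7 ± 4.50%, Nfkb2-202, for 899 residues, 31.0 ± 2.49%, and the retained-intron entry Nfkb2-207, which keeps introns 3 and 13, 22.5 ± 2.65% (SD, n = 3 each). The kept introns of Nfkb2-207 are short, 121 and 80 bases, at chr19:46306365-46306485 and chr19:46309075-46309154. The second quantification had a different leading entry: Nfkb2-204, also for 899 residues, held 27.7 ± 3.33%, against 9.42 ± 1.96% in the first, and Nfkb2-206, Nfkb2-202 and Nfkb2-207 held 24.9 ± 1.51%, 23.6 ± 2.82% and 23.7 ± 1.79% (SD, n = 3 each).

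Nfkbia-201, for the 314 residues of IkappaB-alpha, had 63.83, 68.27 and 50.69 TPM, and the retained-intron entry Nfkbia-202 16.15, 11.23 and 18.86 TPM. Nfkbia-202 is 701 nt long, against 1578 nt for Nfkbia-201, and lacks its first and last exons. Only 32 bases of Nfkbia-202 lie outside the exons of Nfkbia-201. The share of Nfkbia-202 was 20.5 ± 6.50% in the first quantification and 31.4 ± 9.61% in the second (SD, n = 3 each). In the first quantification, Nfkbia-201 even at its lowest stood above the protein-coding sum of every other gene in every library, Nfkbiz included with 43.97, 43.92 and 40.41 TPM.

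For Rela, Rela-201 (549 residues) held 66.8 ± 6.15%, and the retained-intron entry Rela-203, with 35 bases outside the exons of Rela-201, held 7.23, 1.48 and 8.90 TPM. Rela-203 was far lower in replicate 2 than in the other libraries, while the gene's own level varied 1.12-fold. In the second quantification the share of Rela in protein-coding entries was 52.2 ± 7.22% (SD, n = 3). For Relb, Relb-202 (558 residues) had 8.48, 8.67 and 6.36 TPM in the first quantification, but 0.072, 7.29 and 2.74 TPM in the second. Relb-208, a retained-intron entry that enters intron 5, held 12.1 ± 8.11%, and Relb-207, a partial protein-coding entry, 11.4 ± 2.34% (SD, n = 3 each), although Relb-207 was listed at 0 in all 3 libraries of the second. Shares of single Rela and Relb transcripts therefore rest on the quantification used.

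The remaining inhibitors were almost wholly in protein-coding entries. Nfkbib-202 and Nfkbib-201, which encode the same 359 residues, held 78.3 ± 2.77% and 21.7 ± 2.77% (SD, n = 3 each). Nfkbiz-204, for the longer 728-residue IkappaB-zeta, held 93.4 ± 1.14% in the first quantification and 65.4 ± 1.42% in the second, where Nfkbiz-202, for 629 residues, had 20.97, 16.70 and 16.96 TPM (SD, n = 3). In the first, Nfkbiz-202 was listed at 0, 1.99 and 0. Nfkbid-203 (470 residues) had 7.69, 8.99 and 7.75 TPM and Nfkbid-201 (327 residues) 6.97, 5.25 and 7.94 TPM, which do not separate beyond the spread. In the second quantification Nfkbid-203 had 16.0, 13.9 and 9.16 TPM and Nfkbid-201 2.51, 2.55 and 9.71 TPM, with the order the other way in replicate 3.

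Between libraries, 0 of the 10 genes had a spread of counts beyond that of genes of like abundance by edgeR's quasi-likelihood fit with Benjamini-Hochberg adjustment, where 0.565% of the 13280 genes tested did (75 genes). At an unadjusted threshold of 0.05 there were 755 genes, of which 1 was among the 10, Nfkbia (adjusted p = 0.723 by edgeR). Which of the 10 passed this threshold depended on the setting. In the second quantification they were Nfkb2, Rel, Relb and Nfkbia, where 908 of 15763 genes passed. With no filter on low counts they were Rel, Relb and Nfkbia, where 1364 of 22813 passed. Without replicate 3 the lowest unadjusted p of the 10 by edgeR was 0.060 (Relb), where 781 of 13553 genes passed. The remaining edgeR settings gave Nfkbia alone, Rel with Nfkbia, or Rel with Relb. DESeq2, asked for genes with outlying dispersion, gave 125 genes and 0 of the 10. The p-values measure only the spread between these 3 libraries.

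The spread of single genes in TPM can be set beside counting error, which is an error of counts and not of TPM. Nfkbib varied most, with a coefficient of variation of 14.2% over libraries where counting alone gives 4.90%, and it was highest in replicate 1. Nfkbie had 11.9% against 4.45% from counting and Rel 10.9% against 2.58%. Nfkbid varied least, with 2.0% against 4.58%. For Nfkb1 the values were 3.95% and 1.74%, and for Nfkbia 7.72% and 2.47%. The median ratio of the highest to the lowest library was 1.155 over the 10 genes and 1.147 over the 5320 protein-coding genes with 10 to 80 TPM.

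Replicate 3 had the lowest TPM for 8 of the 10 genes, all but Rela and Nfkbid, where 44.0% of the genes tested were lowest in that library. On CPM, counts scaled to library size, with TMM scaling it was 7 of 10, where the background was 32.3%. In TPM the highest and the lowest library of each gene, whichever these were, differed 1.04-fold (Nfkbid) to 1.28-fold (Nfkbib). These folds are not the size of the replicate 3 pattern. Nfkbid was highest in replicate 3, and Nfkbib had 17.75 and 17.25 TPM in replicates 2 and 3.

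Of 10 immediate early genes, which respond quickly to stimulation of many kinds, 3 were called by edgeR's spread test, namely Fos (adjusted p = 0.0027), Fosb (0.0168) and Egr1 (0.0325). Fos had 80.19, 100.78 and 122.41 TPM, lowest in replicate 1. In that library 8 of the 10 NF-kappaB genes had their highest TPM, where 48.8% of the genes tested did, and 7 of 10 their highest CPM, where 33.3% did. Jun, which was not called, had 132.90, 148.22 and 127.27 TPM. The part of this difference in the levels of the NF-kappaB genes was not tested.

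Markers of the labelled cells were high throughout. The 10 T-cell markers summed to 3072, 3031 and 2829 TPM, with Cd3e at 318.8 ± 10.2 and Trac at 492 ± 16.4 TPM (SD, n = 3 each). The 10 B-cell markers summed to 16.8, 24.6 and 12.6 TPM, with Cd79a at 1.99, 3.78 and 1.69 TPM and Ms4a1 at 1.12, 1.74 and 0.66 TPM. The 12 myeloid markers summed to 41.0, 33.0 and 35.4 TPM, with Lyz2 at 17.65, 14.95 and 16.73 TPM and Csf1r at 3.21, 2.45 and 3.55 TPM. None of the markers was at 0, none was called by the spread test, and the part of such cells in the levels of the NF-kappaB genes was not tested. The libraries held 15.0 to 16.9 M estimated gene counts.

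The rest of the pathway is given from lists of genes named for their known roles. Of 69 such genes 66 passed the filter on low counts, and 0 of these had a spread between libraries beyond the abundance trend by edgeR, 5 of them at an unadjusted threshold of 0.05. The IKK complex and the kinases above it gave 10 genes with a median of 24.0 TPM, led by Ikbke (113 ± 1.98 TPM), a kinase related to IKK, the catalytic subunit gene Ikbkb (104 ± 8.39) and Tab2 (40.7 ± 2.51), an adaptor of the kinase TAK1, while Tab3 was lowest (5.97 ± 0.757; SD, n = 3 each). Chuk, for the other catalytic subunit of IKK, had 23.2 ± 2.25 TPM, and Map3k14, for the NIK kinase that drives p100 processing, 24.9 ± 1.35 TPM (SD, n = 3 each); both were added to the description after their values were seen.

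The 7 genes that link the antigen receptor to IKK had a median of 42.6 TPM, and all 7 were above 10 TPM. Prkcq, the protein kinase C theta of T cells, had 122.7 ± 0.730 TPM. The paracaspase gene Malt1 had 55.55 ± 4.97 TPM, while the ubiquitin ligase Traf6 was lowest at 16.8 ± 0.872 TPM (SD, n = 3 each). Among the 11 genes of the linear ubiquitin ligase and the TNF receptor adaptors, Rbck1 had 86.3 ± 3.89 TPM, Traf1 85.2 ± 2.99, Sharpin 68.1 ± 0.194 and Tradd, the lowest, 9.83 ± 1.17 TPM (SD, n = 3 each).

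Of the genes that remove or restrain the signal, Tnfaip3 stood above all of the 10 genes. Tnfaip3, which encodes the ubiquitin-editing enzyme A20 and is an NF-kappaB target, had 428.62, 379.55 and 328.12 TPM, highest in replicate 1 and lowest in replicate 3 (adjusted p = 0.430 by edgeR). Ppp4c (78.9 ± 5.72 TPM), a phosphatase catalytic subunit with a range that overlapped that of Nfkbia, and Tax1bp1 (73.1 ± 3.64), an A20 partner, followed, and Nfkbil1 was the lowest of these 14 genes (4.45 ± 0.901; SD, n = 3 each). Of the 6 genes for destruction of the inhibitors, Ube2d3, a ubiquitin-conjugating enzyme, had 179.6 ± 5.51 TPM, and Skp1a and Rbx1, of the ubiquitin ligase complex, had 62.5 ± 2.59 and 32.1 ± 1.30 TPM. Btrc, an F-box protein that recognises phosphorylated inhibitors, was lowest at 5.77 ± 0.302 TPM (SD, n = 3 each).

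The 21 inducible genes known as NF-kappaB targets in lymphocytes or other cells had a median of 6.48 TPM. Junb, an AP-1 subunit, had 344 ± 36.2 TPM, Ltb, the membrane lymphotoxin chain, 208 ± 9.02 TPM, and Ccr7, the lymph node homing receptor, 180.5 ± 4.58 TPM (SD, n = 3 each). Il6 was lowest with 0.11, 0.09 and 0.03 TPM. Only 8 of the 21 were at 10 TPM or more in all libraries, against 5 of 5 subunits and 4 of 5 inhibitors.

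**Figure D5:**
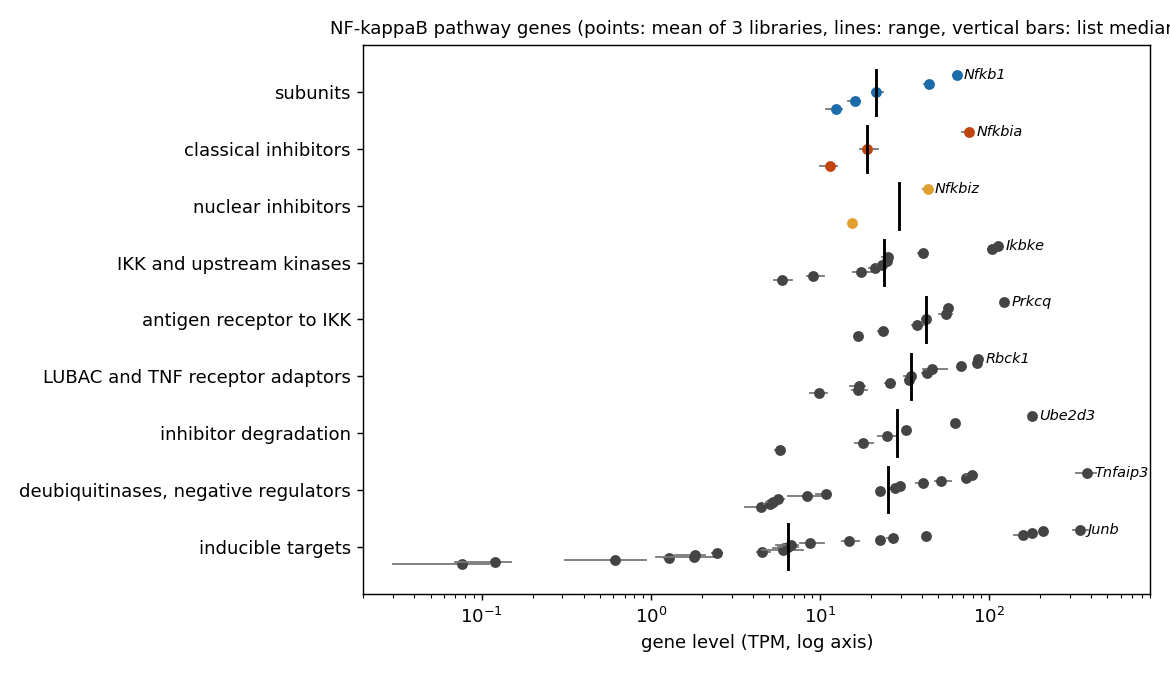
Levels of the NF-kappaB genes and of the pathway lists (horizontal axis, TPM on a log scale); points are means of 3 libraries, thin lines the range and vertical bars the median of each list, with the highest gene of each list named. The 5 subunits and 5 inhibitors lie between 11.5 and 76.3 TPM, below Tnfaip3 at 379 TPM and Junb at 344 TPM.

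The protein-coding genes whose levels lay nearest to those of Nfkb1, by distance on log2(TPM + 1) over the 3 libraries, were Rcsd1 (0.02), Cct7 (0.03) and Ppp1cb (0.05). Those nearest to Nfkbia were Igfbp4, Lrrfip1 and Sipa1 (0.06 each). They were lowest in replicate 3, at 67.73, 67.80 and 71.85 TPM, against 69.55 TPM for Nfkbia. Because they were picked for closeness over the 3 libraries, that low value follows from the choice. With 3 libraries of 1 group, this likeness is one of level and says nothing about joint control.

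Some reads could belong to other genes at the same place. Nfkbib overlaps Sirt2 over 778 bases on the opposite strand, with Sirt2 at 21.4 TPM, close to the 19.1 TPM of Nfkbib. Nfkb2 overlaps the opposite-strand AC114539.1 over 1292 bases, at 5.32 TPM, and Nfkb1 overlaps Gm43430 on its own strand over 3897 bases, at 3.33 TPM. The kit kept strand, per the labels' protocols, but how strand was handled in counting is not known. For Nfkbib, Nfkb2 and Nfkb1 the posterior SD of the count was 0, so none of their reads was recorded as shared. Whether reads of the overlapping genes entered these levels was not tested.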

How the data were processed

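Total RNA from 3 libraries of 1 group was analysed. Per the file headers and the README files, the authors deposited, for each library, estimated counts and TPM per gene and per transcript from transcriptome alignments to mm10 with GENCODE M21, with posterior SDs and posterior mean TPM. The second quantification, also deposited by the authors, holds estimated counts and TPM per transcript from an index of the same annotation, and was summed per gene here. The sources used here name neither aligner nor quantifier. Spike-in and phiX entries (0.309 to 0.318% of counts) and entries named by a number only were left out of library sizes and tests.

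Levels are the deposited TPM, given with no test, and genes are called ordered only where library ranges do not overlap. Protein-coding sums use transcripts of that annotated type. Counts were rounded, filtered by filterByExpr and scaled by TMM, and each gene's residual deviance in a 1-group quasi-likelihood fit (edgeR 4.0.16, R 4.3.3, robust) was set against the abundance trend by an F test, with adjusted p under 0.05 as the threshold over all genes. DESeq2 1.42.0 was an alternative. The procedure was first tested on simulated data with known shifts. Counts of this size give 95% Poisson intervals of, for example, 66.0 to 73.2 TPM for Nfkbia and 9.08 to 10.9 TPM for Nfkbie in replicate 3, which cover counting error only. Promoter windows are RefSeq's, and gene coordinates the annotation's, 1-based.

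The genes, lists, tests and alternatives were chosen with earlier results of these data known. Named genes are the 10, up to 3 highest and 1 lowest of each pathway list and any passing the spread test, fixed markers, the 3 nearest in level to the top subunit and inhibitor, and transcripts with 10% or more of a gene's TPM; exceptions are named in the text, and 1 gene is not reported here. Reads were assigned to 1 reference genome, and parental alleles were not analysed here.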

Additional observations from a re-analysis of the deposited data

How the results depend on the processing

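The mean log2 ratio of subunits to inhibitors (-0.06 over all entries) was -0.20 in the second quantification, -0.48 over protein-coding entries, -0.64 over both, 0.57 against the classical inhibitors alone, 0.039 without members under 10 TPM (Nfkbie), and 0.17 and 0.18 as a difference of medians with a pseudocount of 1 and 0.1. It moved by less than the spread between libraries with posterior mean TPM and without any 1 library. The log2 ratio of Nfkb1 and Nfkb2 to Rel, Rela and Relb (0.24) was -0.32 over protein-coding entries and 0.16 over those of the second quantification; its alternatives were chosen after seeing the data. Genes with a spread beyond the trend numbered 75, against 303 with no filter, 28 without robust fitting, 125 by DESeq2's outlying dispersion, and 35 to 85 without 1 library (35 without replicate 3, 43 without replicate 1). None of the 10 genes was called in any of these settings, and the lowest adjusted p was 0.301, for Nfkbia with no filter. Levels of 9 of the 10 genes moved by more than 1 SD in the second quantification, all of them upward, with a median ratio of 1.30 over the 10 genes. Shares in protein-coding entries moved for 5 of the 10. No paired analysis was possible because there is 1 group. At this depth counting error alone gives coefficients of variation of 1.74 to 4.90% for the 10 genes. The effect of depth on single transcripts was not tested. No result met the conditions for a closer look, which need groups of 4 or more samples, more than 1 group or unused data.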
